A study of Mus musculus with 12 samples.

Results

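The genes described are 6 subunits of voltage-gated calcium channels, Cacna1a, Cacna1c, Cacna1d, Cacna1g, Cacna1h and Cacna2d1, read by symbol from the count file of each library and scaled to CPM (counts-per-million). They are 6 of 56691 genes in each file and all 6 passed the filter on low counts, as did 17335 genes in all. They were chosen by their measured CPM across the 4 groups of these same libraries, with no threshold, so their levels and differences are given as a description and no p-value is attached to them. The RNA came from palatal shelves, which grow out from both sides of the upper jaw and fuse into the secondary palate, of mouse embryos at gestational day 12. Knockout embryos carried a conditional deletion of DNMT1, which restores DNA methylation on newly made strands after replication, and were untreated. AzadC embryos were wild type and were exposed to 5-aza-2'-deoxycytidine, a cytidine analogue that is built into DNA and traps DNA methyltransferases. Vehicle embryos were wild type and received the vehicle of that drug. Control embryos were wild type and untreated, so that untreated controls stand against the knockout and vehicle embryos against AzadC. Each group had 3 libraries, each made from the shelves of 2 embryos of 1 genotype, and the series' design text gives 3 animals per pool instead. The driver of the deletion, the exons removed, the dose, the time of exposure and the litter or date of each library are not stated in the labels used here. All p-values therefore measure the spread between pooled libraries.

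Voltage-gated calcium channels open when the membrane depolarises and let calcium into the cell, where it acts on contraction, secretion, enzymes and transcription. The alpha1 subunit forms the pore and sets the current type: L-type currents need strong depolarisation and last long, T-type currents open near the resting potential and inactivate quickly, and P/Q-type currents trigger transmitter release at nerve endings. The alpha2delta and beta subunits bring the pore to the surface and tune its opening. Among the 6 genes, Cacna1c and Cacna1d encode L-type pores, Cacna1g and Cacna1h T-type pores, Cacna1a the P/Q-type pore, and Cacna2d1 an alpha2delta subunit that is cleaved, anchored outside the membrane and bound by gabapentin drugs. In humans, activating variants of CACNA1C cause Timothy syndrome, in which the face can be affected.

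Total expected counts, the read estimates of the program RSEM, ran from 12640536 in AzadC replicate 1 to 33113790 in control replicate 1. Dnmt1 itself, the targeted gene, had 201, 179.6 and 191 CPM in knockout libraries, against 286, 278 and 258 CPM in controls (log2 change -0.52, SE 0.07, edgeR quasi-likelihood test, adjusted p = 0.000369). AzadC libraries had 408, 482 and 411 CPM and vehicle libraries 452, 451 and 448 CPM of Dnmt1. All 8 palatal mesenchyme markers were counted in every library, with sums of 881 to 1265 CPM in knockout, 1019 to 1151 in AzadC, 874 to 1172 in vehicle and 1161 to 1519 in control libraries. Marker sums of some other cell types did not overlap between knockout and control libraries. Those of neurons, smooth muscle and pericytes, epithelium, and the Schwann and melanocyte lineage did overlap. Skeletal muscle markers summed to 195.5 to 1170.5 CPM in knockout libraries and 7.87 to 114 in controls, with Myod1, Pax7, Myh8 and Ckm at 0 in some library, and macrophage markers to 249.5 to 279.9 CPM in knockout and 55.8 to 74.6 in controls. Cartilage markers summed to 304.5 to 546 CPM in knockout libraries and 836 to 2639 in controls. Skeletal muscle markers of vehicle libraries, at 49.1 to 467 CPM, overlapped the knockout range. In bulk tissue, fewer cells of a type and less RNA per cell cannot be told apart.

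The 6 genes were at their highest mean in the control libraries, with the exception of Cacna1h, whose vehicle mean was slightly higher. All 6 averaged lowest in the knockout libraries. The knockout difference was largest for Cacna2d1 and smallest for Cacna1g and Cacna1h, and AzadC libraries lay close to vehicle libraries for all 6 genes except Cacna1h. Vehicle means were themselves below control means for every gene but Cacna1h, and by least for Cacna1a. The knockout mean thus lay closer to the vehicle mean than to the control mean for these genes. Single vehicle and control libraries overlapped for Cacna1a, Cacna1c and Cacna1d. The same control libraries enter the knockout and the vehicle differences.

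**Figure D1:**
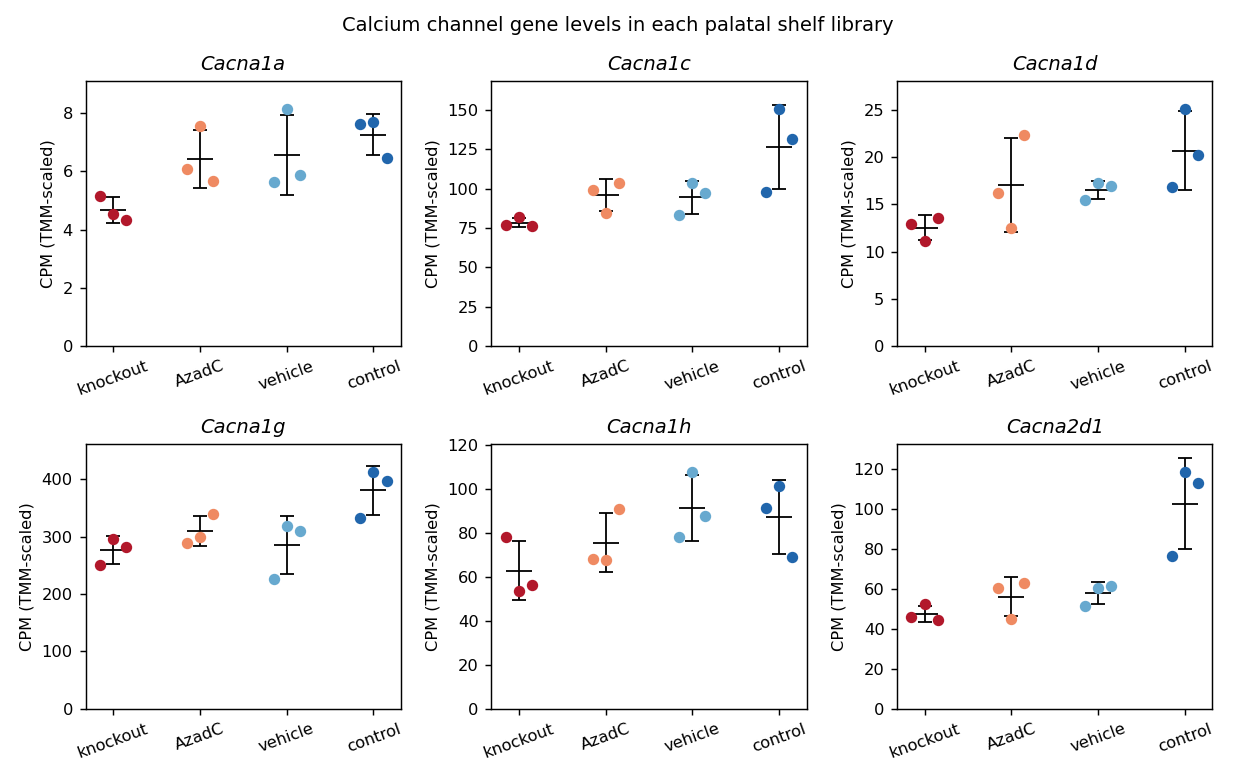
Level of each of the 6 calcium channel genes in CPM (linear axis from 0) in every library, by group. Points are libraries, the horizontal line is the mean of 3 and the vertical bar is the SD. Cacna2d1 lies at 44.4 to 52.1 CPM in knockout and at 76.6 to 118 CPM in control libraries, with AzadC and vehicle libraries between 44.8 and 63.0 CPM.

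Cacna2d1 (ENSMUSG00000040118, chr5:15934691-16374511, plus strand, mm10) had 45.6, 52.1 and 44.4 CPM in the knockout libraries, against 76.6, 118 and 113 CPM in controls. It had 60.1, 44.8 and 63.0 CPM in AzadC libraries, against 51.3, 60.3 and 61.3 CPM in vehicle libraries. The 3 controls were above all 9 other libraries, and those 9 formed a single range from 44.4 to 63.0 CPM. On the log2 scale the difference was -1.11 (SE 0.16) between knockout and control, a fold of 0.463, and it was -1.29 to -0.996 when any 1 library was left out. Vehicle against control gave -0.83 (SE 0.16), AzadC against vehicle -0.04 (SE 0.16) and knockout against vehicle -0.28 (SE 0.16). Control replicate 1, at 76.6 CPM, was well below the other two controls. Bone markers were also highest in the controls, with sums of 553 to 572 CPM in knockout, 433 to 583 in AzadC, 246 to 468 in vehicle and 684 to 905 in control libraries, Ibsp and Bglap at 0 in some library. Unlike Cacna2d1, their sums were higher in every knockout than in every vehicle library, and their part in the difference from control was not tested.

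Cacna1c (ENSMUSG00000051331, chr6:118587240-119196418, minus strand), the L-type pore of heart and smooth muscle, had 76.9, 82.0 and 76.4 CPM in knockout libraries, against 97.7, 150.4 and 131 CPM in controls. AzadC libraries had 99.4, 84.8 and 104 CPM, against 83.2, 104 and 97.0 CPM in vehicle libraries. All 3 knockout libraries were below the other 9, and control replicate 1 overlapped the AzadC and vehicle ranges. The log2 difference was -0.69 (SE 0.13) for knockout against control, 0.02 (SE 0.13) for AzadC against vehicle, -0.42 (SE 0.13) for vehicle against control and -0.27 (SE 0.13) for knockout against vehicle. Markers of smooth muscle and pericytes, cells that use this channel, overlapped between these groups, with sums of 522 to 795 CPM in knockout libraries and 536.5 to 612 CPM in controls.

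Cacna1d (ENSMUSG00000015968, chr14:30039939-30491455, minus strand), the L-type pore of cardiac pacemaker cells and inner hair cells, had levels of 12.9, 11.1 and 13.6 CPM in knockout libraries, against 16.8, 25.1 and 20.3 CPM in controls. It was 16.2, 12.5 and 22.4 CPM in AzadC libraries, against 15.5, 17.2 and 16.9 CPM in vehicle libraries. Knockout libraries lay below every vehicle and control library but overlapped AzadC replicate 2, and the AzadC range spanned the vehicle range. The log2 difference was -0.72 (SE 0.19) for knockout against control, 0.05 (SE 0.19) for AzadC against vehicle, -0.32 (SE 0.19) for vehicle against control and -0.40 (SE 0.19) for knockout against vehicle.

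The T-type pore gene Cacna1g (ENSMUSG00000020866, chr11:94408391-94474198, minus strand), which supports burst firing in thalamus and pacemaking in heart, had 249.95, 297 and 283 CPM in knockout libraries, against 333, 413 and 397 CPM in controls. AzadC libraries had 289, 299.8 and 339 CPM, against 227, 319 and 310.1 CPM in vehicle libraries. Controls were above all knockout and vehicle libraries, AzadC replicate 3 reached into the control range, and the knockout range lay within the vehicle range. The log2 difference was -0.46 (SE 0.12) for knockout against control and -0.42 (SE 0.12) for vehicle against control. Knockout against vehicle gave -0.05 (SE 0.12), with values from -0.18 to 0.04 when 1 library was left out, and AzadC against vehicle 0.12 (SE 0.12).

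Cacna1h (ENSMUSG00000024112, chr17:25374285-25433783, minus strand), the T-type pore of sensory neurons and other tissues, had its own order of groups. It had 78.4, 53.7 and 56.6 CPM in knockout libraries, against 91.7, 102 and 68.9 CPM in controls. It had 68.1, 67.9 and 91.1 CPM in AzadC libraries, against 78.4, 108 and 87.8 CPM in vehicle libraries. Knockout replicate 1 overlapped both the control and the vehicle range, and replicates 2 and 3 were below every other library. The log2 difference was -0.48 (SE 0.18) for knockout against control, -0.27 (SE 0.18) for AzadC against vehicle, 0.06 (SE 0.18) for vehicle against control and -0.54 (SE 0.18) for knockout against vehicle. It was the only 1 of the 6 genes with a vehicle mean above the control mean.

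Cacna1a (ENSMUSG00000034656, chr8:84388440-84640246, plus strand), the P/Q-type pore that is known from cerebellar Purkinje cells and nerve endings, had 5.16, 4.53 and 4.33 CPM in knockout libraries, against 7.63, 7.70 and 6.45 CPM in controls. It had 6.07, 7.57 and 5.68 CPM in AzadC libraries, against 5.63, 8.13 and 5.89 CPM in vehicle libraries. The 3 knockout libraries were below the other 9, which overlapped one another. The log2 difference was -0.64 (SE 0.19) for knockout against control, -0.03 (SE 0.19) for AzadC against vehicle, -0.15 (SE 0.19) for vehicle against control and -0.49 (SE 0.19) for knockout against vehicle. Neuron markers overlapped between knockout and control, at 72.6 to 87.9 CPM in knockout and 68.2 to 96.1 CPM in control libraries. Their sums were lower in AzadC (44.5 to 58.1 CPM) and vehicle libraries (56.2 to 61.8 CPM) than in every knockout library. Snap25 and Neurod1 were at 0 in some library.

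Counted over the 6 genes, 5 had every knockout library below every control library, which 15.1% of the 17335 genes tested also had, and Cacna1h was the exception. In knockout against vehicle it was 3 of 6, Cacna1a, Cacna1c and Cacna1d, beside 14.4% of all genes. In vehicle against control it was 2 of 6, Cacna1g and Cacna2d1, beside 11.5%. In AzadC against vehicle it was 0 of 6, beside 5.76%. These counts rest on the contrasts that the genes were picked with, and nothing is read from them. The median log2 difference of the 6 genes was -0.66 for knockout against control, -0.01 for AzadC against vehicle, -0.37 for vehicle against control and -0.34 for knockout against vehicle, while the median of all genes tested was 0.00 in each. The knockout effect minus the AzadC effect, each against its own comparison group, had a median of -0.66 over the 6 genes. It ran from -1.07 (SE 0.22) for Cacna2d1 to -0.21 (SE 0.25) for Cacna1h. The gap between vehicle and control libraries enters these values. That gap was -0.83 (SE 0.16) for Cacna2d1 and 0.06 (SE 0.18) for Cacna1h.

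**Figure D2:**
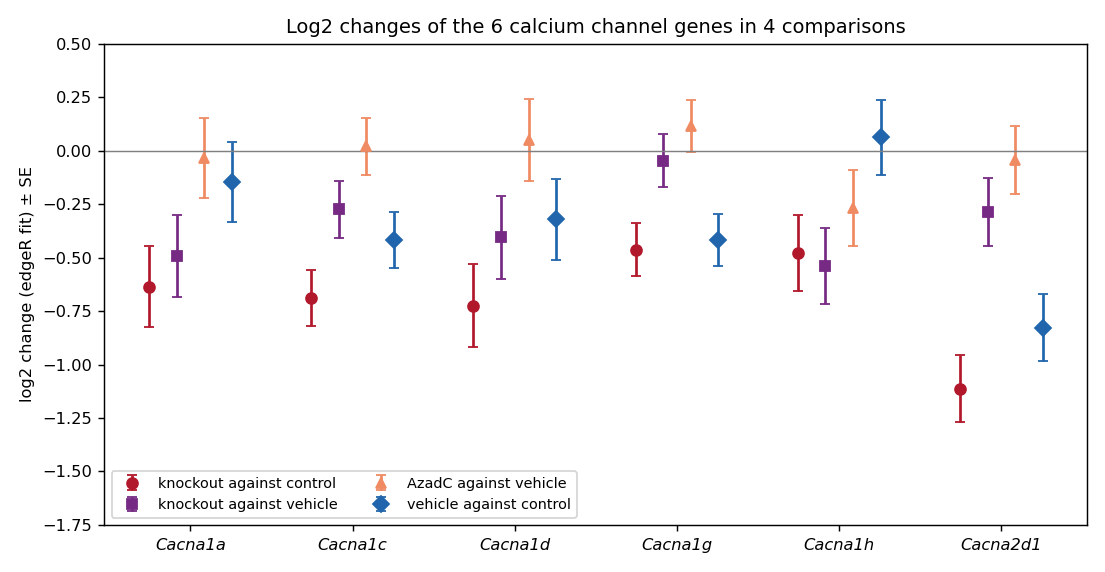
Log2 difference with its SE (bars) for each of the 6 genes in 4 comparisons. Knockout against control is negative for all 6 genes, from -1.11 for Cacna2d1 to -0.46 for Cacna1g, while AzadC against vehicle runs from -0.27 for Cacna1h to 0.12 for Cacna1g.

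Of the 6 genes, 3 (Cacna1c, Cacna1d and Cacna2d1) have promoter windows in the RefSeq table (GRCm38.p6), 6 windows of 300 bases, each from 250 bases before to 50 after an annotated start. They are shown because DNMT1 acts on CG dinucleotides, which are in capitals below, and because 2 starts of the same gene differ in how many they hold. The motif counted was CG, which reads the same on both strands. The Cacna2d1 window (chr5:15934441-15934740, plus strand) holds 42 CG, a number that 3.03% of the 32851 windows in the table reach or pass. A Cacna1c window (chr6:119108446-119108745, minus strand) holds 57 (0.152% of windows), and a Cacna1d window (chr14:30353437-30353736, minus strand) holds 63 (0.0304%). The Cacna1c start farthest upstream (chr6:119196360-119196659, minus strand) holds 3, which 76.7% of windows reach or pass, and the median over all windows is 7.
Cacna2d1: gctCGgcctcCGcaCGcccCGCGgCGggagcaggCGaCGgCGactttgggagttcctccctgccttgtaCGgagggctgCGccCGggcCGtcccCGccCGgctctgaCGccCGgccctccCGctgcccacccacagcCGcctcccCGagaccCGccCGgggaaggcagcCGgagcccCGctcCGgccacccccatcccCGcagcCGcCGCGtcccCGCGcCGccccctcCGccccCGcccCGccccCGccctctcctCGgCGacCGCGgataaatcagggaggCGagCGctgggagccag
Cacna1c, CG-rich start: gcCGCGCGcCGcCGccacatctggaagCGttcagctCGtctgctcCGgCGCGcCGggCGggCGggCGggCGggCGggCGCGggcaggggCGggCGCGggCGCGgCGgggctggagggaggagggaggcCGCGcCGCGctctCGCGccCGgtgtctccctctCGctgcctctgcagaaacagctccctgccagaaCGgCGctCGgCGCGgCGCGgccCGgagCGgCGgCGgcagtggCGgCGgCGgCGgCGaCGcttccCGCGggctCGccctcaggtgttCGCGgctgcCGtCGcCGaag
Cacna1c, CG-poor start: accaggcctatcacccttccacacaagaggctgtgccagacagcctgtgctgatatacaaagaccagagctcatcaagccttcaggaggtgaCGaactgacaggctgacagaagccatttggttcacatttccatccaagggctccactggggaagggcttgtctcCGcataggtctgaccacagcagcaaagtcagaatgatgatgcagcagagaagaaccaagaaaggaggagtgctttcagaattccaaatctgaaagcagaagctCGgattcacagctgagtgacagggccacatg
Cacna1d, CG-rich start: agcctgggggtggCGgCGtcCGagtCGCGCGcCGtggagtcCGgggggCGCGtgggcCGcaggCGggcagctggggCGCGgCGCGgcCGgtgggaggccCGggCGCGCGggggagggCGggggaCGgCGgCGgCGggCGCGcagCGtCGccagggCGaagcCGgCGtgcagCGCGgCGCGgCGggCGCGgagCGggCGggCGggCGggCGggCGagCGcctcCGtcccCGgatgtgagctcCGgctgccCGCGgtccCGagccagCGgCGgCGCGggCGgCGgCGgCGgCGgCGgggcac
The remaining Cacna1c window (chr6:118757925-118758224) holds 7 CG and the remaining Cacna1d window (chr14:30491107-30491406) holds 4. Methylation was not measured in these libraries, and counts summed over a gene do not show which start was used.

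Levels were set beside each other per length, as transcripts-per-million (TPM) over all 12 libraries, among 26 genes of the channel family. Cacna1g led with a mean of 208 TPM, and Cacna1h (26.1 TPM), Cacna1c (22.2 TPM) and Cacna2d1 (20.7 TPM) held ranks 4, 5 and 6. Cacna1a had rank 10 with 7.87 TPM and Cacna1d rank 11 with 5.84 TPM. Cacna1g stood clear of the rest, with 150.5 TPM in its lowest library, whereas Cacna1h, Cacna1c and Cacna2d1 overlapped, with library ranges of 13.9 to 43.4, 16.6 to 32.8 and 14.6 to 36.6 TPM. Cacna1a (4.28 to 11.7 TPM) and Cacna1d (3.25 to 9.11 TPM) also overlapped. Between them and Cacna1g stood the gamma subunit gene Cacng7 with a mean of 88.1 TPM and the beta subunit gene Cacnb3 with 51.8 TPM.

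Group means in TPM kept the lowest value in the knockout for 5 genes. Cacna1g averaged 183 ± 33.2 TPM in knockout, 197 ± 13.5 in AzadC, 195 ± 30.6 in vehicle and 255 ± 36.7 in control libraries (SD, n = 3 each). Cacna1c averaged 17.5 ± 0.837 TPM in knockout and 28.4 ± 6.17 TPM in control libraries. For Cacna2d1 the AzadC mean was the lowest, at 16.7 ± 1.44 TPM, beside 16.95 ± 0.672 in knockout, 18.1 ± 3.15 in vehicle and 31.0 ± 7.55 in control libraries. Cacna1a averaged 5.08 ± 0.511 TPM in knockout and 11.2 ± 0.686 TPM in controls, a wider gap than in CPM. The T-type pores Cacna1g, Cacna1h and Cacna1i together made up most of the pore subunit TPM in every library: 84.5% to 89.0% in knockout, 85.6% to 86.2% in AzadC, 83.9% to 87.4% in vehicle and 85.3% to 85.5% in control libraries. L-type pores held 8.998% to 12.5% in knockout and 9.92% to 11.3% in control libraries. The T-type and L-type shares thus overlapped between these groups. The share of P/Q, N and R-type pores (Cacna1a, Cacna1b and Cacna1e) did not, at 2.01% to 2.998% in knockout and 3.36% to 4.61% in control libraries. As CPM per kilobase of the longest annotated transcript, a scale chosen after the data were seen, Cacng7 passed Cacna1g (46.8 against 37.3). The T-type share was then 79.6% to 82.9% over all libraries. On that scale the P/Q, N and R-type share overlapped, at 2.02% to 2.43% in knockout and 2.17% to 2.53% in control libraries.

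**Figure D3:**
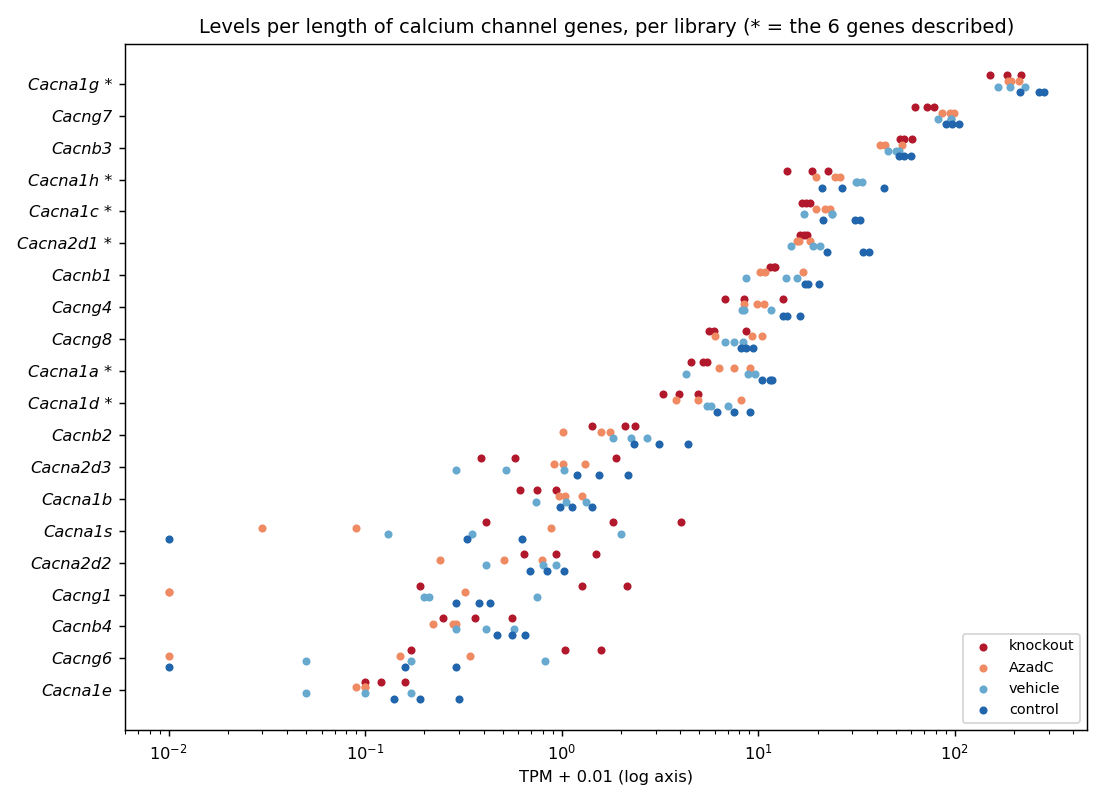
Level per length (TPM + 0.01, log axis) of the calcium channel genes in each library, coloured by group and ordered by mean TPM, with the 6 genes starred. Cacna1g is at the top with a mean of 208 TPM, and the other 5 starred genes have means from 5.84 to 26.1 TPM.

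Per-length levels depend on the transcript mix that RSEM assigned. The mean transcript length used was 31.0% of the longest annotated transcript for Cacna1g (2601 of 8383 bases) and 19.5% for Cacna1a (1549 of 7926 bases). It was 69.8% for Cacna2d1, 62.2% for Cacna1h, 54.7% for Cacna1c and 49.8% for Cacna1d. For Cacna2d1 it was 4378, 4729 and 4395 bases in knockout libraries, against 5577, 5433 and 5645 bases in controls, groups that did not overlap (difference -1051 bases). For Cacna1a it was 1751, 1763 and 1435 bases in knockout libraries, against 1265, 1318 and 1251 bases in controls. In a two-sided exact permutation test of 3 libraries against 3, both differences reached p = 0.1, the smallest that design allows, and the adjusted p was 0.9 over 18 tests of 6 genes in 3 comparisons. With 3 libraries a group the test cannot pass at 0.05, so it does not show that the lengths were alike.

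**Figure D4:**
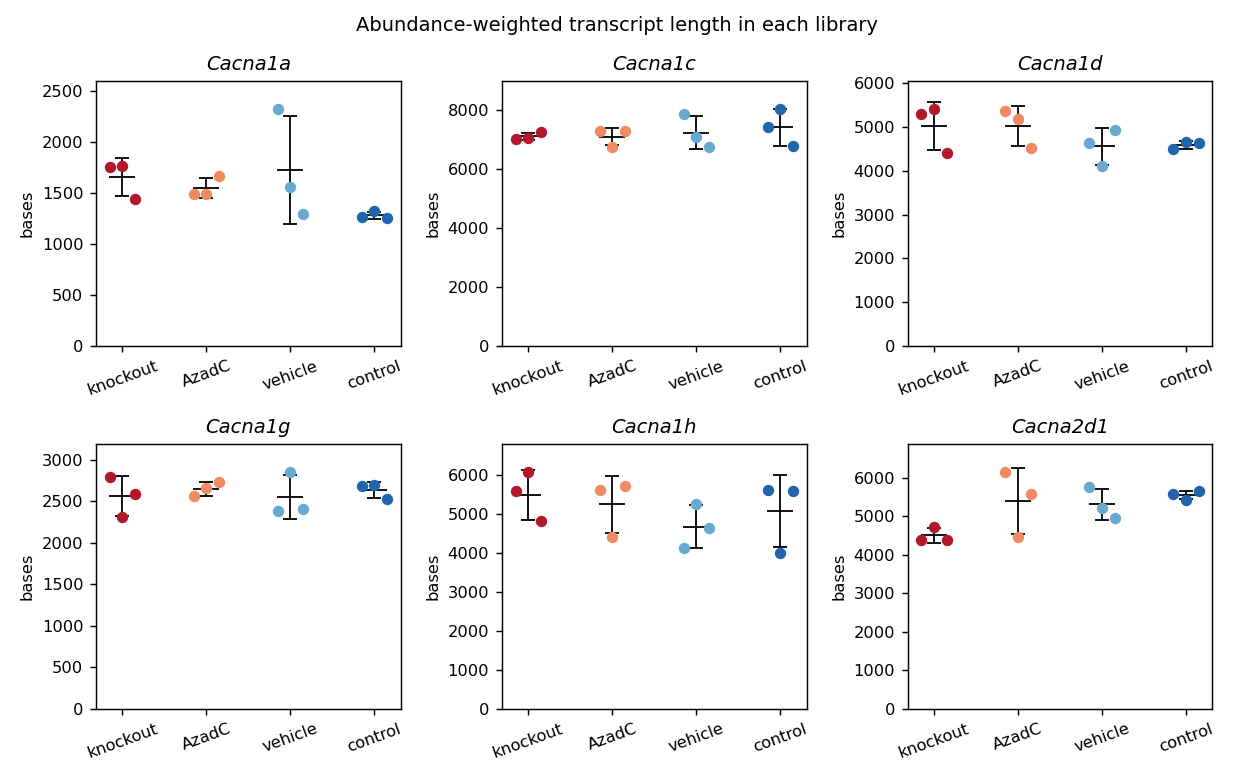
Abundance-weighted transcript length in bases (linear axis from 0) assigned by RSEM to each of the 6 genes, per library. The horizontal line is the mean of 3 and the vertical bar is the SD. Cacna2d1 lies at 4378 to 4729 bases in knockout and at 5433 to 5645 bases in control libraries, with AzadC and vehicle libraries from 4454 to 6148 bases.

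All of the 6 genes but Cacna1g overlap another annotated gene, and reads of genes on opposite strands may be mixed, since the strand setting is not given in the sources used here. Gm16183, an antisense transcript within Cacna1a that was singled out after its values were seen, had 1.19, 0.935 and 1.54 CPM in knockout libraries, against 5.10, 6.74 and 3.19 CPM in controls. It fell in the knockout by 2.05 on the log2 scale (SE 0.29, edgeR adjusted p = 0.000514), in the direction of Cacna1a. Cacna1c overlaps Dcp1b, with up to 687 counts in a library, and Cacna1d overlaps Dcp1a, with up to 2831 counts. Cacna1h overlaps Tpsg1, with at most 1 count, and the opposite-strand genes within Cacna2d1 had at most 1 count.

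By profile over the 12 libraries, the closest pairs among the 6 genes were Cacna1c with Cacna1g and Cacna1c with Cacna1d. The root mean square difference of the Cacna1c centred log2 CPM was 0.140 from Cacna1g and 0.161 from Cacna1d, and the most unlike pair was Cacna1h and Cacna2d1, at 0.426. Among 13231 genes compared, the likest were Npas3 (0.0874), Pbx3 (0.0892) and Tle2 (0.0977) for Cacna1c, and Nipa1 (0.0941), Rassf8 (0.0962) and Thra (0.101) for Cacna1g. For Cacna1h they were Pkdcc (0.0827), Trpm4 (0.0900) and Cul9 (0.0954), and for Cacna1d Drp2 (0.110), Lhfpl2 (0.125) and Loxl3 (0.133). For Cacna1a they were Cd248 (0.132), Six5 (0.134) and Grik5 (0.134). Cacna2d1 had the most distant neighbours, Slc7a2 (0.148), Srpx (0.161) and Shank1 (0.184). The distance is not scaled to a gene's own spread, which was also largest for Cacna2d1. Its SD of log2 CPM over the libraries was 0.476, beside 0.245 to 0.348 for the others.

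The other 20 genes of the channel family give the setting of the 6, and 14 of them passed the filter. In knockout against control, 3 of the 14 fell and 0 rose, beside 6.43% and 7.83% of all genes tested by edgeR's quasi-likelihood test at an adjusted p below 0.05. With no adjustment 2 rose at p below 0.05, and DESeq2 and limma-voom also had 0 rising after adjustment. Cacnb1, the beta subunit of skeletal muscle channels, had 13.8, 13.9 and 13.3 CPM in knockout libraries, against 21.5, 25.6 and 21.2 CPM in controls (log2 change -0.74, SE 0.16, edgeR adjusted p = 0.00684). The gamma subunit genes Cacng4 (log2 change -0.70, SE 0.15, edgeR adjusted p = 0.00848) and Cacng7 (-0.37, SE 0.08, edgeR adjusted p = 0.00766), whose products also traffic AMPA receptors, fell as well. Cacng4 had 14.3, 18.1 and 21.1 CPM in knockout libraries, against 27.7, 28.2 and 30.7 CPM in controls. Cacng7 had 78.7, 87.4 and 91.8 CPM in knockout libraries, against 108, 116 and 108 CPM in controls. Their groups did not overlap, and the 3 calls held in all 14 other fits. The abundant beta subunit Cacnb3 did not pass, with 78.1 to 89.8 CPM in knockout and 74.2 to 86.9 CPM in control libraries (log2 difference 0.08, SE 0.10). The median log2 difference over the 14 was -0.29, beside -0.66 for the 6 genes and 0.00 for all genes.

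Cacna1s, the L-type pore of skeletal muscle, was the 1 family gene with every knockout library above every control library, which 16.9% of all genes also had. It had 10.7, 3.30 and 1.13 CPM in knockout libraries, against 0.835, 0.613 and 0 CPM in controls, and did not pass the test (log2 difference 3.27, SE 1.07, edgeR adjusted p = 0.0578). The skeletal muscle marker sums of the same libraries were 1170.5, 555 and 195.5 CPM in knockout and 114, 58.4 and 7.87 CPM in control libraries. Cacna1s and the marker sum thus had the same order within both groups, and the part of muscle cells in the difference was not tested.

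In AzadC against vehicle, 0 of the 14 genes passed edgeR's test, beside 0.0115% of all genes in either direction. With no adjustment 1 had p below 0.05 with each of edgeR, DESeq2 and limma-voom, and 0 passed with any of them after adjustment. Cacng7 had 116, 104 and 113 CPM in AzadC libraries, against 95.3, 115 and 109 CPM in vehicle libraries (log2 difference 0.06, SE 0.08). Cacnb1 had 14.97, 13.9 and 20.4 CPM in AzadC libraries, against 14.3, 19.6 and 18.7 CPM in vehicle libraries. In vehicle against control, 0 of the 14 passed edgeR's test, beside 3.52% of all genes, while 5 were lower at an unadjusted p below 0.05 and DESeq2 and limma-voom each called 1 lower. In knockout against vehicle, Cacng7 fell by 0.31 on the log2 scale (SE 0.08, edgeR adjusted p = 0.0230), the only 1 of 14, beside 4.13% of all genes called lower. That call was lost when knockout replicate 1 or 2, or vehicle replicate 2 or 3, was left out (edgeR adjusted p from 0.0689 to 0.0897 in those 4 fits and 0.00552 to 0.0897 over all alternatives).

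**Figure D5:**
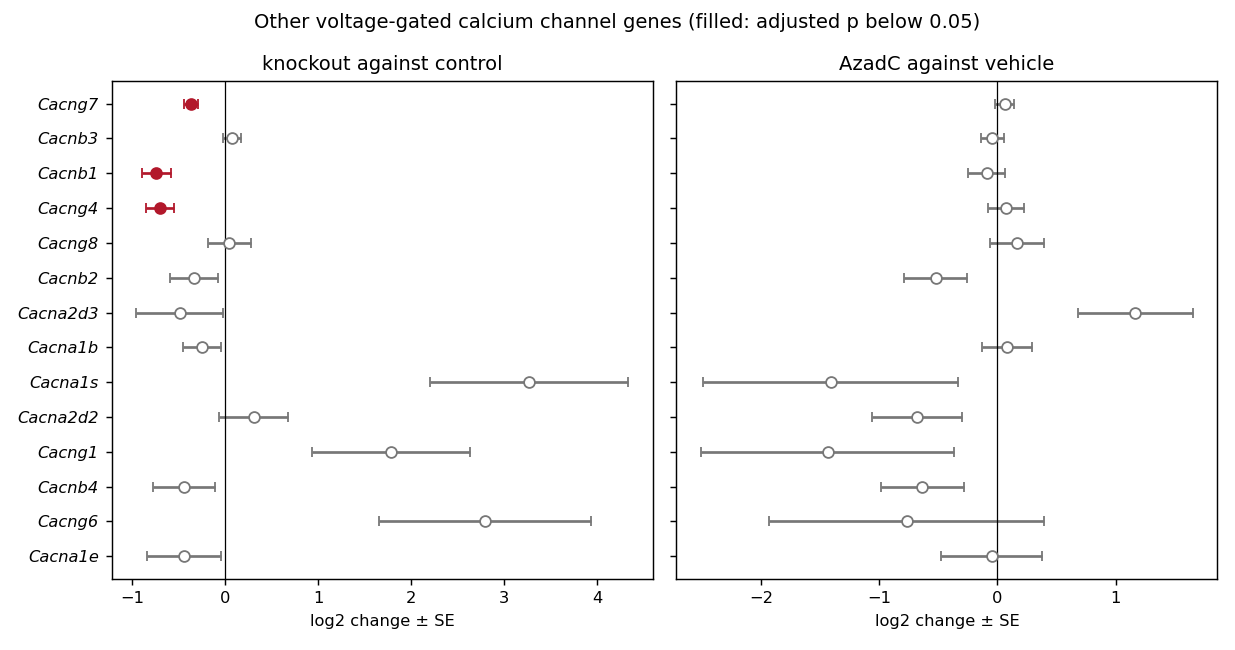
Log2 difference with its SE for the other channel family genes that passed the filter, in knockout against control (left) and AzadC against vehicle (right); filled points passed the test. Cacnb1, Cacng4 and Cacng7 are filled at left, at -0.74, -0.70 and -0.37, and no point is filled at right.

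Calcium in the cell comes from these channels and from stores, is pumped out, and is read by sensor proteins, calcineurin and their targets. For these steps, 39 genes and 9 channel regulators were followed, a list drawn up with results of these libraries known. Of the 48, 44 passed the filter, and in knockout against control 6 rose and 5 fell, beside 7.83% and 6.43% of all genes. The ryanodine receptor Ryr1, the calcium release channel of skeletal muscle, rose in the knockout by 1.98 on the log2 scale (SE 0.44, edgeR adjusted p = 0.00881), with 59.2, 33.2 and 15.4 CPM in knockout libraries, against 9.60, 9.23 and 8.501 CPM in controls. The calcium pumps Atp2a1, Atp2a2 and Atp2b1, the store protein Casq2 and the kinase Camk2a also rose, Atp2b1 by 0.32 (SE 0.07, edgeR adjusted p = 0.0114). The knockout libraries had the order of their skeletal muscle marker sums (1170.5, 555 and 195.5 CPM) for Ryr1, Atp2a1 (51.7, 25.7 and 8.77 CPM), Casq2 (27.00, 11.5 and 6.16 CPM) and Camk2a (9.59, 5.36 and 3.79 CPM). Atp2a2 (281, 269 and 276 CPM) and Atp2b1 (113.5, 116 and 104 CPM) did not have that order in knockout libraries. In control libraries Ryr1, Atp2a1 and Casq2 also kept the order of the marker sums (114, 58.4 and 7.87 CPM). Camk2a did not, with 2.77, 2.26 and 2.80 CPM in controls. The part of muscle cells was not tested. Without knockout replicate 2 or control replicate 2 the adjusted p of Atp2b1 was 0.0594 or 0.0543, and over all alternatives it ran from 0.00179 to 0.0594.

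The 5 that fell were 3 of the calcineurin-driven transcription factors, Nfatc1, Nfatc2 and Nfatc4, with the store sensor Stim1 and the pump Atp2b4. Nfatc1 had 13.2, 13.2 and 12.6 CPM in knockout libraries, against 25.3, 35.1 and 25.6 CPM in controls (log2 change -1.14, SE 0.15, edgeR adjusted p = 0.000293). Nfatc4 had 228, 230.4 and 277 CPM in knockout libraries, against 364, 393 and 353 CPM in controls (-0.59, SE 0.09, edgeR adjusted p = 0.000518). Against vehicle, Nfatc4 fell by 0.47 (edgeR adjusted p = 0.00342) and Nfatc1 by 0.69 (edgeR adjusted p = 0.0102), both in all 14 other fits too. Channel regulators had 7 of 9 genes past the filter and 0 called by edgeR in any of the 5 comparisons, whose shares over all genes run from 0.0115% (AzadC against vehicle, either direction) to 7.83% (knockout against control, higher). DESeq2 and limma-voom also called 0 of the 7, and at an unadjusted p below 0.05 edgeR had 1 higher and 1 lower in knockout against control, 1 higher in vehicle against control, and 2 higher and 1 lower in knockout against vehicle. The median log2 difference of the 44 in knockout against control was 0.08, beside 0.00 for all genes.

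In knockout against vehicle 2 of the 44 rose, Camk2a among them, and 3 fell, Camk2g and the 2 Nfat genes above, beside 6.7% and 4.13% of all genes. Camk2a rose by 1.38 (edgeR adjusted p = 0.0355), a call lost without knockout replicate 1 or 2 or vehicle replicate 1 or 3, with the replicate block (0.0617) and with only the groups compared (0.0610). Without knockout replicate 1 its log2 difference was 0.93 and its adjusted p 0.155, over alternatives from 0.00258 to 0.155. Camk2g fell by 0.32 (edgeR adjusted p = 0.0166), lost without knockout replicate 2 (0.0836), knockout replicate 3 (0.0589) or vehicle replicate 1 (0.0694), over alternatives from 0.00362. In vehicle against control 0 rose and 2 fell, beside 1.46% and 2.06% of all genes: calcineurin's catalytic subunit gene Ppp3ca by 0.41 (SE 0.07, edgeR adjusted p = 0.0113) and Nfatc2 by 1.07 (SE 0.26, edgeR adjusted p = 0.0419). Ppp3ca lost its call without vehicle replicate 1 (0.0567, over alternatives from 8.72e-05). Nfatc2 lost its call without any 1 of the vehicle libraries or control replicate 1 or 2, with the replicate block (0.0649) and with only the groups compared (0.0507), with adjusted p from 0.00202 to 0.153 over its alternatives. For the knockout effect minus the AzadC effect, 1 of the 14 family genes, Cacng7 (-0.43), and 3 of the 44 calcium genes, Nfatc4 (-0.61), Nfatc1 (-1.02) and Stim1 (-0.51), were called lower and 0 higher, beside 2.2% of all genes in each direction. The gap between vehicle and control libraries enters that difference of effects as well. In AzadC against vehicle 0 of 44 passed edgeR's test, beside 0.0115% of all genes in either direction. By edgeR 0 had an unadjusted p below 0.05, and DESeq2 and limma-voom gave 0 adjusted calls.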

How the data were processed

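RNA of palatal shelves was sequenced in 12 libraries, 3 per group, prepared with the NuGen mRNA kit per the labels. Per the submitters' processing notes, STAR 2.7.0 and RSEM 1.3.1 were used with the mm10 build, and FastQC, DESeq2 and Trim Galore are also named. Each deposited file gives, per gene, expected counts (reads that RSEM shared out between transcripts, not normalized), TPM made by the authors' RSEM run, and an abundance-weighted transcript length in bases; all 3 were used. Total expected counts were 12640536 to 33113790 per library, and intervals and standard errors do not cover effects of amplification.

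Rounded expected counts were tested with edgeR 4.0.16 (filterByExpr, TMM scaling, 1 mean per group over all 12 libraries, quasi-likelihood test, Benjamini-Hochberg adjustment over 17335 genes, threshold 0.05) in R 4.3.3. A call is an adjusted p below that threshold, and SE is the size of a log2 change over the root of its F value. CPM are TMM-scaled. DESeq2 1.42.0, limma-voom (limma 3.58.1), other scalings and filters, a replicate block, only the groups compared and leaving out each library were tried, and the test was checked on simulated data. Replicate numbers come from the titles. Replicates of a group differed by more than counting noise, so no library was counted as a duplicate.

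The 6 genes, the family, calcium and marker lists, and the rules were chosen with earlier results of these data known. The genes named are the 6, the other family genes that passed the filter, up to 4 calcium genes per comparison with the smallest adjusted p past the threshold, the 3 likest genes per member, and Dnmt1. Further genes of a short list of calls are named for completeness, after their values were seen. A single calcium gene is not reported by name here. Likeness is the root mean square difference of centred log2 CPM (prior count 2) over 12 libraries, among genes with a mean above 1 CPM. Marker lists not quoted beside a result summed as follows: epithelium 131 to 272 CPM in knockout and 156 to 290.3 in control libraries, endothelium 279.8 to 352 and 354.5 to 362, and Schwann and melanocyte lineage 130.5 to 162 and 78.5 to 137, in the same order. Gene positions are those of the mm10 annotation, and promoter windows come from RefSeq (GRCm38.p6).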

Additional observations from a re-analysis of the deposited data

Results flagged for a closer look

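In the channel family and calcium lists, 4 genes had knockout effects (against control) that differed from AzadC effects (against vehicle) by edgeR's interaction term. The comparison groups differ, so any gap between vehicle and control libraries enters the term. Vehicle against control gave -0.06 (SE 0.08) for Cacng7, -0.31 (SE 0.08) for Stim1, -0.45 (SE 0.15) for Nfatc1 and -0.13 (SE 0.09) for Nfatc4. For the gamma subunit gene Cacng7 the knockout effect minus the AzadC effect was -0.43 (SE 0.11, edgeR adjusted p = 0.0474), from log2 changes of -0.37 in knockout and 0.06 in AzadC. Its call was lost without knockout replicate 1 or 2, AzadC or vehicle replicate 1 or 3, or any 1 control, and with the replicate block (0.0566), with adjusted p from 0.00967 to 0.113 over all alternatives. For the store sensor Stim1 the difference was -0.51 (edgeR adjusted p = 0.0265), with 32.8, 36.9 and 36.5 CPM in knockout libraries, 43.6, 37.4 and 41.0 CPM in AzadC, 36.6, 37.9 and 34.04 CPM in vehicle and 43.0, 46.8 and 45.1 CPM in control libraries. Its call was lost without knockout replicate 1 or 2, AzadC or vehicle replicate 1 or 3, or control replicate 2, with adjusted p from 0.00334 to 0.0702 over all alternatives. For Nfatc1 the difference was -1.02 (edgeR adjusted p = 0.0174), lost without AzadC replicate 3 at 0.0515, the highest over its alternatives from 0.000381. For Nfatc4 it was -0.61 (edgeR adjusted p = 0.0147), lost without knockout replicate 2 at 0.0502, the highest over its alternatives from 8.82e-05.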

How the results depend on the processing

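All 450 recomputed log2 differences of the 6 channel genes moved by less than the spread between replicates. Leaving out 1 of 3 libraries can hardly move a difference that far, so this does not show that the differences are stable. Of 272 recomputed values of the other named genes, 230 kept their call and 42 lost it, and 243 of 300 recomputed counts of calls stayed within 1.5 times. None of the 18 called changes of those other named genes turned round. Among the 6 channel genes, small differences changed sign with 1 library left out. In AzadC against vehicle this held for all but Cacna1h, with Cacna1d running from -0.20 to 0.24. Cacna1h in vehicle against control (-0.08 to 0.18) and Cacna1g in knockout against vehicle (-0.18 to 0.04) did so too. Knockout against control stayed negative for all 6. The causes of the moved counts were not tested.

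Among calcium handling and regulator genes, those called higher in knockout against control numbered 6, and 1 to 6 with 1 library left out; those called lower numbered 5, and 2 to 5. Higher in knockout against vehicle were 2, but 1 with upper quartile scaling, 4 with no filter, 1 with only the groups compared and 0 to 3 with 1 library left out. Higher in vehicle against control were 0, but 2 with no filter and 0 to 1 with 1 library left out. Lower in vehicle against control were 2, but 4 with no filter, 6 with DESeq2, 1 with only the groups compared and 0 to 2 with 1 library left out. For the difference of effects, 0 were higher, but 3 with no filter, 2 with DESeq2 and 0 to 1 with 1 library left out, and 3 were lower, 1 to 4 with 1 library left out. Among channel family genes, 0 were higher in knockout against control, but 2 with no filter and 0 to 1 with 1 library left out; 1 was lower against vehicle, 0 to 1 with 1 left out; 0 were lower in vehicle against control, but 1 with no filter, DESeq2 or limma-voom and 0 to 1 with 1 left out. For the difference of effects, 0 were higher, but 1 with no filter, and 1 was lower, but 2 with no filter, DESeq2 or limma-voom and 0 to 2 with 1 left out.

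With the replicate number as a block, calcium genes higher in knockout against vehicle numbered 1, calcium genes lower in vehicle against control 1 and family genes lower in vehicle against control 1. Whether the numbers pair the libraries is not known. Correlations of same-numbered deviations were 0.28, 0.08 and 0.24 in knockout against control. They were 0.03, -0.10 and -0.06 in AzadC against vehicle, and 0.04, 0.11 and 0.14 in vehicle against control. Differently numbered libraries were not correlated for comparison, so pairing was not tested. With 3 pooled libraries a group, the log2 differences of Cacna1a (mean 6.23 CPM) carry an SE of 0.19, against 0.12 for Cacna1g. Those of Cacna1d, at a mean of 16.7 CPM, also carry an SE of 0.19.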
